A study of Mus musculus with 18 samples.

Results

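JAK kinases and STAT factors pass signals from cytokine receptors to the nucleus, and 9 of their genes were followed here in mouse bone marrow derived dendritic cells (DCs). The genes were Jak1, Jak2, Jak3 and Tyk2 among the kinases and Stat2, Stat3, Stat4, Stat5a and Stat6 among the factors. They were taken by name from the 62197 genes of the normalized count table. RNA sequencing of polyadenylated RNA had been done on 18 bulk libraries in 6 groups of 3, which cross treatment with the genotype of cytosolic phospholipase A2 (cPLA2, gene Pla2g4a).

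All cells came from 10 days of culture with GM-CSF, a growth factor that itself signals through JAK2 and STAT5 proteins, and the semiadherent fraction was used. Nonconfined cells were taken directly at the end of culture. Confined cells were held under a ceiling 3 µm high and collected 4 hours after confinement. LPS cells received 100 ng/ml of lipopolysaccharide of Salmonella enterica, a component of bacterial outer membranes, for 30 minutes according to the labels, and were collected on the following day. The study's Methods give a slightly shorter LPS time. The protocol text of every library names LPS, and titles and treatment tags were followed instead. The treatments therefore also differ in time from the end of culture, and treatment and time cannot be told apart. WT denotes the control animals and KO a conditional deletion of Pla2g4a with Cre under the Itgax (CD11c) promoter, so that cells without this promoter's activity keep the gene. Donors were of both sexes, and no age is given per library.

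Reads assigned to genes ranged from 33027230 to 61300021 per library, with a median of 40950397. Group medians were 39851237 in nonconfined WT, 37116045 in nonconfined KO, 42049558 in confined WT, 33672070 in confined KO, 52482280 in LPS labelled WT and 43169041 in LPS labelled KO. Values below are normalized counts, that is, reads divided by a size factor of the library. A legend of the study calls the libraries biological replicates, and neither it nor the labels say whether the 3 libraries of a group came from separate animals or cultures. The p-values measure the spread between libraries.

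The genotype labels were checked against the targeted gene. Pla2g4a read 697, 686 and 770 normalized counts in nonconfined WT and 548, 542 and 533 in nonconfined KO. In confined cells it read 1369, 1430 and 1321 in WT and 923, 871 and 920 in KO. The KO libraries were below every WT library in both states, with log2 differences of −0.41 (SE 0.06, limma adjusted p = 0.00019) and −0.60 (SE 0.06, adjusted p = 3.81e-08). Among LPS libraries, Pla2g4a read 1005, 969 and 967 under the WT label and 1065, 1032 and 1028 under the KO label. Here the label made no difference past the threshold (log2 difference 0.09, SE 0.06, adjusted p = 1), and the KO-labelled libraries were the higher ones.

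Y-linked genes, which mark donor sex and not the genotype, followed the labels in the other 4 groups but not under LPS. Ddx3y, a Y-linked RNA helicase, read 3.05, 0 and 1.97 normalized counts in nonconfined WT, 949, 981 and 874 in nonconfined KO, 0, 1.72 and 2.37 in confined WT and 1036, 920 and 948 in confined KO. Donor sex and genotype thus cannot be told apart in those 4 groups. Under LPS it read 1271, 0 and 662 in WT-labelled replicates 1 to 3 and 2.12, 1476 and 783 in KO-labelled replicates 1 to 3. Eif2s3y, a Y-linked translation factor gene, read 799, 1.83 and 448 against 2.12, 863 and 505. The distance between library pairs, a chi-square per gene, was 5.45 for WT-labelled replicate 2 with KO-labelled replicate 1 and 6.59 for the third replicates of both labels. The other 7 pairs across the labels were at 13.67 to 44.68, and LPS pairs with the same label were at 10.64 to 48.63. For that reason LPS groups are called by their label, and their values are also given over all 6 LPS libraries.

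As background, a cytokine receptor without enzyme activity of its own binds JAK kinases at its inner side, and ligand binding lets them phosphorylate the receptor and the STAT factors it recruits. Phosphorylated STAT factors dimerize, enter the nucleus and bind DNA. Which kinases and factors are used depends on the receptor: JAK1 and TYK2 serve type I interferon receptors, JAK2 serves GM-CSF, and JAK3 serves receptors with the common gamma chain. STAT2 joins IRF9 in the complex ISGF3 after type I interferon, STAT3 acts after IL-6 and IL-10, STAT4 after IL-12, STAT5A after GM-CSF and STAT6 after IL-4 and IL-13. RNA levels do not show phosphorylation, which was not measured.

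In the GRCm39 coordinates of the table, the kinase genes were Jak1 (GSMG0038997, chromosome 4, 101009171 to 101122479, minus strand, 25 exons) and Jak2 (GSMG0027587, chromosome 19, 29229203 to 29290495, plus strand, 24 exons), besides Jak3 and Tyk2. Jak3 (GSMG0053518, chromosome 8, 72129027 to 72143221, plus strand) shares its entry with Insl3, a hormone gene, so its counts hold reads of both. Tyk2 (GSMG0057938) lies on chromosome 9, 21015364 to 21042571, minus strand. Among the factor genes, Stat2 (GSMG0005225, chromosome 10, 128106367 to 128128722) and Stat6 (GSMG0005199, chromosome 10, 127478854 to 127496856) both lie on the plus strand. Stat4 (GSMG0000241) lies on chromosome 1, 52026306 to 52146347, plus strand. Stat5a (GSMG0008181, chromosome 11, 100750177 to 100775994, plus strand) and Stat3 (GSMG0010028, chromosome 11, 100775924 to 100830366, minus strand) meet at their ends, where their coordinates share 71 bases on opposite strands.

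All 9 genes passed the filter on low counts in each group, and levels between genes are compared only per kilobase of exon. In nonconfined WT cells, Jak2 was the most abundant at 1637 ± 52.3 normalized counts per kilobase (mean, SD, n = 3), followed by Tyk2 at 1019 ± 37.2 and Stat2 at 945 ± 42.4. Stat6, the IL-4 factor, followed at 703 ± 32.1, Jak1 at 501 ± 1.29, Stat3 at 484 ± 8.66 and Stat5a at 433 ± 13.6. Jak3 at 173 ± 14.8 and Stat4 at 142 ± 5 were the lowest. No neighbours in this order overlapped in their libraries. In nonconfined KO cells the order of the means was the same, but Tyk2 overlapped Stat2, Jak1 overlapped Stat3 and Jak3 overlapped Stat4.

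The comparison of confined with nonconfined WT cells asks which of these genes change after mechanical confinement. Of the 9 genes, 7 were higher in confined WT cells at an adjusted p under 0.05, none was lower, and 5 were also above a log2 fold change of 1. Among all 17875 genes tested, 28.2% were higher and 28.4% lower at that threshold, and 11.4% were higher with the fold requirement. With every library scaled to the same total, 5 of the 9 were higher and 1, Tyk2, was lower. Of all genes, 3578 were then higher and 7380 lower. The median log2 fold change was 1.26 for the 9 genes and −0.01 for all genes tested. Bulk libraries cannot tell fewer cells of a type from less RNA per cell.

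Stat4, the factor of IL-12 signalling, read 1311, 1277 and 1222 normalized counts in nonconfined WT and 5496, 5235 and 5256 in confined WT. The groups were far apart, and the log2 fold change of 2.07 (SE 0.11, adjusted p = 6.73e-13) was the largest among the 9. Stat5a, which acts after GM-CSF, read 3677, 3453 and 3585 in nonconfined WT and 12431, 11615 and 12389 in confined WT. All 3 confined libraries were higher, by a log2 fold change of 1.77 (SE 0.05, adjusted p = 8.94e-18). Stat3, the factor of IL-6 and IL-10 signalling, read 4989, 4823 and 4857 in nonconfined WT and 15959, 15471 and 15924 in confined WT. No library overlapped, and the log2 fold change was 1.69 (SE 0.07, adjusted p = 1.82e-14).

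Jak2, the kinase of GM-CSF and interferon gamma receptors, read 9998, 10639 and 10463 in nonconfined WT and 25683, 25633 and 25745 in confined WT. Its confined libraries were nearly identical and all higher, by a log2 fold change of 1.31 (SE 0.05, adjusted p = 7.24e-16). Stat2, the ISGF3 subunit, read 6231, 5696 and 5945 in nonconfined WT and 14302, 14321 and 14271 in confined WT. Again the groups were separate, with a log2 fold change of 1.26 (SE 0.05, adjusted p = 8.18e-16).

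The other genes differed less. Stat6 read 4854, 4454 and 4789 in nonconfined WT and 5820, 5870 and 5900 in confined WT. All confined libraries were the higher ones, by a log2 fold change of 0.32 (SE 0.05, adjusted p = 1.12e-05), which was 0.10 and no longer past the threshold at the same total per library. Jak1, which serves interferon and gp130 receptors, read 5436, 5410 and 5433 against 6505, 6438 and 6587. It rose by a log2 fold change of 0.26 (SE 0.04, adjusted p = 3.24e-05), which was 0.04 and not past the threshold at the same total. Jak3, the partner of the common gamma chain, read 1473, 1251 and 1306 against 1528, 1547 and 1507, without overlap. Its log2 fold change of 0.19 (SE 0.08) missed the threshold with limma (adjusted p = 0.0585) and passed it with edgeR (adjusted p = 0.0371) and without nonconfined WT replicate 1 (0.26, adjusted p = 0.0202). Tyk2, a kinase of interferon and IL-12 receptors, read 9284, 8736 and 8706 against 9392, 9318 and 9649. Its confined libraries were slightly above the others, with a log2 fold change of 0.09 (SE 0.05, adjusted p = 0.15) that turned to −0.14 (adjusted p = 0.0169) at the same total.

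**Figure D1:**
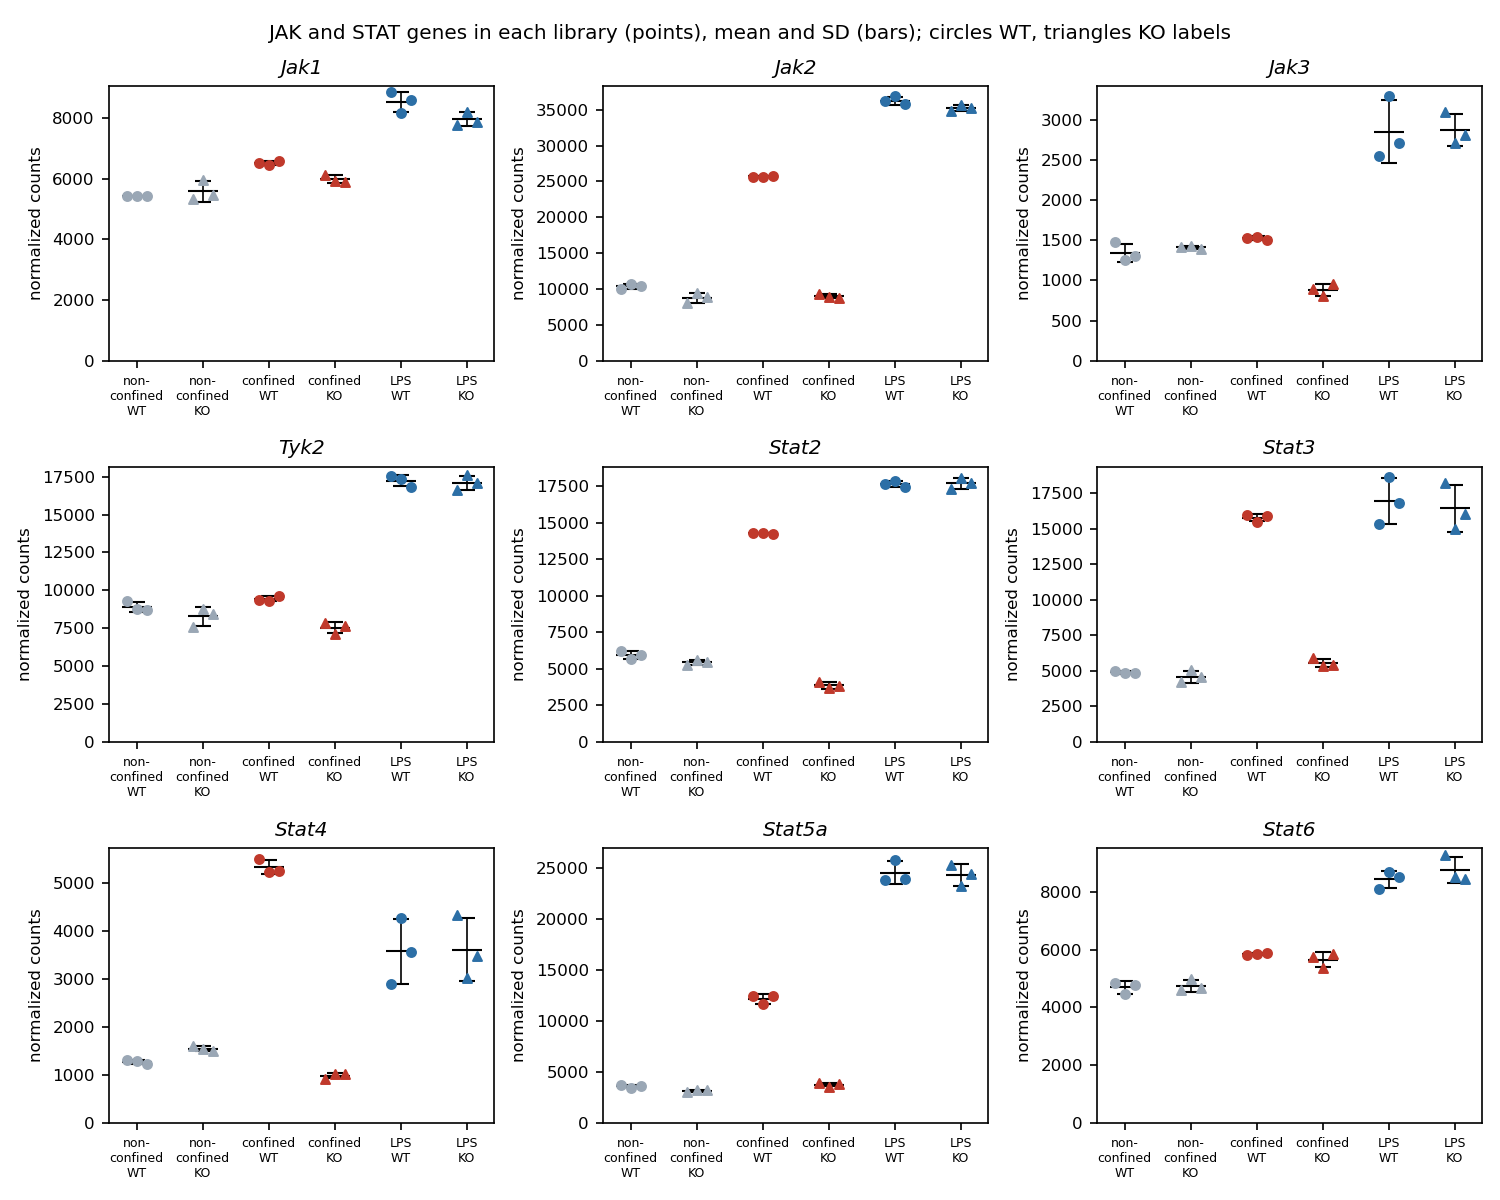
Normalized counts (linear axis from 0) of the 9 genes in each of 18 libraries by group, with points for libraries and lines for group mean and SD (n = 3). Jak2 sits between 25633 and 25745 in confined WT libraries and between 8755 and 9342 in confined KO libraries, and the LPS libraries are the highest for 8 of the 9 genes, with Stat3 overlapping confined WT.

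The same comparison in cPLA2 KO cells gave a mixed picture. At an adjusted p under 0.05, 3 genes were higher (Stat3, Stat5a and Stat6) and 4 were lower (Jak3, Stat4, Stat2 and Tyk2). Of all genes tested, 22.8% were higher and 23.4% were lower. With a log2 fold change above 1 in either direction, limma called 0 of the 9, and so did an unadjusted p under 0.05 with that fold (0), edgeR (0) and DESeq2 (0), while 6.43% of all genes were higher and 5.53% were lower by that rule. The median was 0.04 for the 9 genes and 0.01 for all genes tested.

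Stat2 read 5249, 5621 and 5440 normalized counts in nonconfined KO and 4123, 3663 and 3809 in confined KO. All 3 confined libraries were lower, by a log2 fold change of −0.49 (SE 0.05, adjusted p = 1.23e-08), where WT cells had moved up. Stat4 read 1605, 1535 and 1493 in nonconfined KO and 918, 1014 and 1018 in confined KO. It fell without overlap (log2 fold change −0.65, SE 0.11, adjusted p = 4.82e-05). Jak3 read 1411, 1434 and 1391 in nonconfined KO and 893, 805 and 952 in confined KO. Its fall was the steepest of the 9 in this genotype, with a log2 fold change of −0.68 (SE 0.08, adjusted p = 7.82e-07).

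Stat3 read 4194, 5031 and 4537 in nonconfined KO and 5875, 5317 and 5425 in confined KO. Its libraries did not overlap, and the log2 fold change of 0.27 (SE 0.07, adjusted p = 0.00379) was small beside the WT value of 1.69. Stat5a read 3035, 3182 and 3216 against 3882, 3537 and 3808. All confined libraries were higher, by 0.25 (SE 0.05, adjusted p = 0.000234) on the log2 scale. Stat6 read 4590, 4984 and 4686 against 5765, 5360 and 5861. It too was higher in each confined library, with a log2 fold change of 0.25 (SE 0.05, adjusted p = 0.00028).

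Jak2 read 8044, 9379 and 8944 in nonconfined KO and 9342, 8916 and 8755 in confined KO. The groups overlapped and the log2 difference was 0.04 (SE 0.05, adjusted p = 0.545). Jak1 read 5311, 5960 and 5455 against 6129, 5912 and 5899, also with overlap. Its log2 difference was 0.10 (SE 0.04, adjusted p = 0.0659), and without nonconfined KO replicate 2 it was 0.15 (adjusted p = 0.00662). Tyk2 read 7594, 8769 and 8461 against 7809, 7130 and 7660, again overlapping. Its log2 fold change of −0.13 (SE 0.05, adjusted p = 0.0326) was not past the threshold without nonconfined KO replicate 2 (−0.09, adjusted p = 0.163) or 3 (−0.12, 0.112) or confined KO replicate 2 (−0.09, 0.168), nor in a fit of the compared groups alone (adjusted p = 0.106).

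Whether confinement acted differently in the genotypes was tested by the interaction, the confinement change in KO minus that in WT. It was lower than 0 for 7 of the 9 genes, and for 5 of them by more than 1 on the log2 scale, and above 0 for none past the threshold. Among all genes tested, 15.6% had a negative and 10.2% a positive interaction past the threshold, and 6.56% had one below −1. At the same total per library 6 of the 9 were called, all negative, with Tyk2 no longer among them. The median interaction was −1.27 for the 9 genes and 0.05 for all genes tested.

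The largest interaction was that of Stat4, at −2.72 (SE 0.15, adjusted p = 7.88e-12). Stat2 followed with −1.76 (SE 0.06, adjusted p = 3.48e-15) and Stat5a with −1.51 (SE 0.07, adjusted p = 1.55e-13). For Stat3 the interaction was −1.42 (SE 0.10, adjusted p = 4.38e-10), and for Jak2, the largest among the kinases, it was −1.27 (SE 0.07, adjusted p = 1.45e-12). Jak3 had an interaction of −0.87 (SE 0.12, adjusted p = 6.28e-06), made of a fall in KO cells and a WT change that missed the threshold. Tyk2 had −0.22 (SE 0.07, adjusted p = 0.0246), which was lost without nonconfined WT replicate 2 or 3, nonconfined KO replicate 2 or 3, confined WT replicate 3 or confined KO replicate 2, with adjusted p between 0.0602 and 0.074. Jak1 at −0.16 (SE 0.06, adjusted p = 0.0682) missed the threshold with limma and passed it with edgeR (−0.20, adjusted p = 0.0274), with DESeq2 (−0.17, adjusted p = 0.0312) and without nonconfined KO replicate 1 (−0.19, adjusted p = 0.0299). Stat6 had −0.07 (SE 0.07, adjusted p = 0.537), with a 95% interval from −0.21 to 0.08.

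Within a state, KO was compared with WT directly. In nonconfined cells 2 of the 9 genes were lower in KO and none was higher, where 4.11% of all genes were lower. The genes were Jak2, whose KO libraries (8044 to 9379) were all below the WT libraries (9998 to 10639), and Stat5a, with KO at 3035 to 3216 and WT at 3453 to 3677. Their log2 differences were −0.24 (SE 0.05, adjusted p = 0.0025) and −0.18 (SE 0.05, adjusted p = 0.0215). Stat5a was not past the threshold without nonconfined WT replicate 1 (−0.16, adjusted p = 0.092) or 3 (−0.18, 0.0736) or nonconfined KO replicate 1 (−0.16, 0.109). None of the 9 passed with a log2 fold change above 1 in limma (0), at an unadjusted p (0), in edgeR (0) or in DESeq2 (0), and 0.850% of all genes were higher and 0.302% were lower by that rule. Stat4 was the highest of the others, at 0.28 (adjusted p = 0.123, and 0.0158 in a fit of the compared groups alone), and its KO libraries were all above the WT ones. Stat2, at −0.13 (adjusted p = 0.077), passed with DESeq2 (adjusted p = 0.032), at the same total (−0.17, adjusted p = 0.0177) and without nonconfined KO replicate 2 (−0.16, adjusted p = 0.0431).

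In confined cells 8 of the 9 genes were lower in KO than in WT, 5 of them by more than 1 on the log2 scale. Among all genes, 20.6% were lower and 7.31% were lower by that fold. The median was −1.51 for the 9 genes and 0.04 for all genes tested. Stat4 was lower by the largest margin, a log2 difference of −2.44 (adjusted p = 6.72e-14), then Stat2 with −1.89 (adjusted p = 1.06e-18) and Stat5a with −1.70 (adjusted p = 2.63e-17). Jak2 and Stat3 both stood at −1.51 (adjusted p = 8.95e-17 and 2.01e-13). In each of these the WT libraries were above all KO libraries. Jak3 at −0.79 (adjusted p = 9.03e-08) and Tyk2 at −0.33 (adjusted p = 1.63e-05) were also separate. Jak1 was at −0.12 (adjusted p = 0.0335), which turned to 0.03 at the same total per library and was not past the threshold without any 1 of the 3 confined WT libraries or confined KO replicates 2 or 3 (adjusted p 0.0547 to 0.0991). Stat6 overlapped between the genotypes and had a log2 difference of −0.05 (adjusted p = 0.457).

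LPS is a bacterial stimulus of DCs through TLR4, and its libraries give a comparison with microbial activation. All 9 genes were higher in LPS than in nonconfined libraries under either label, where 33.4% of all genes were higher under the WT label and 33.4% under the KO label. With a log2 fold change above 1, 6 of the 9 were higher under the WT label and 7 under the KO label (5 with edgeR, 6 with DESeq2 and 4 at the same total per library), and 15.0% of all genes were in each case. Without the fold requirement, 9 and 8 were higher at the same total, Jak1 under the KO label being no longer past the threshold (0.03, adjusted p = 0.503). The medians were 1.48 and 1.21 for the 9 genes and 0.03 and 0.02 for all genes tested. Adjusted p-values of the 9 genes ran from 1.78e-21 to 1.89e-10 under the WT label and from 7.51e-22 to 2.98e-09 under the KO label.

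Over the 6 LPS libraries, Stat5a ranged from 23220 to 25822 normalized counts with a median of 24201. This was the largest change of the 9, with log2 fold changes of 2.78 under the WT label and 2.95 under the KO label. Jak2 ranged from 34790 to 36864 with a median of 35719, and changed by 1.81 and 2.01. Stat3 ranged from 15004 to 18627 with a median of 16442, and changed by 1.79 and 1.84. Each of the 6 LPS libraries was above every nonconfined library for these genes. Stat2 ranged from 17301 to 18092 with a median of 17709, and changed by 1.57 and 1.70. Jak3 ranged from 2553 to 3297 with a median of 2761, and changed by 1.08 and 1.02. Both were likewise separate from nonconfined cells.

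Tyk2 ranged from 16649 to 17593 under LPS with a median of 17206, and changed by 0.95 and 1.05. Stat6 ranged from 8125 to 9294 with a median of 8525, and changed by 0.85 and 0.88. Jak1 ranged from 7776 to 8838 with a median of 8188, and changed by 0.65 and 0.51, the smallest of the 9. These 3 genes had log2 fold changes of only 0.09, 0.32 and 0.26 under confinement in WT cells. Stat4 ranged from 2900 to 4328 with a median of 3524, and its log2 fold changes were 1.48 and 1.21. Stat4 also had the widest relative spread, 2900, 4259 and 3565 under the WT label and 4328, 3018 and 3483 under the KO label. Its 2 highest LPS libraries were those without Ddx3y reads above 2.12 normalized counts. Those were also the highest for Stat3 (18627 and 18251), Jak3 (3297 and 3097), Stat5a (25822 and 25309) and Stat6 (8696 and 9294). The other genes did not share this. In 1 of these libraries, with the KO label, Jak1 (7776), Jak2 (34790), Tyk2 (16649) and Stat2 (17301) were at their lowest under LPS. In the other, with the WT label, Jak2 was at its highest (36864). Whether these differences follow donor sex was not tested.

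Between the LPS labels, limma called 0 of the 9 genes and 0 of all 17875 genes, so that 0% were higher and 0% lower. At an unadjusted p under 0.05 there were 890 genes and 1 of the 9, Jak1 with a log2 difference of −0.10, while edgeR called 0 and DESeq2 called 0. Differences of the 9 genes lay between −0.10 and 0.05. Pla2g4a did not follow the LPS labels, so these values cannot be read as an effect of genotype. The Y-linked genes show only that donor sex was mixed under each label. With all 6 LPS libraries pooled, 36 of 36 calls on the 9 genes against nonconfined and confined groups were the same.

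**Figure D2:**
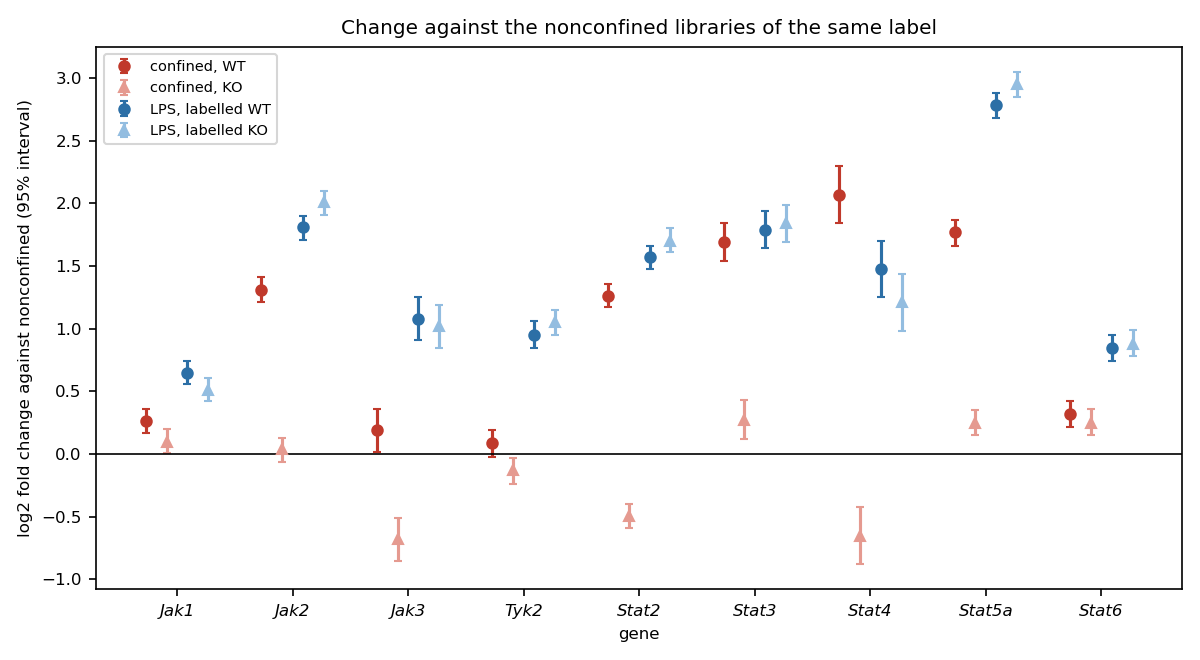
Log2 fold changes against the nonconfined libraries of the same label with 95% intervals from limma (n = 3 libraries a group), circles for WT and triangles for KO labels. Stat4, Stat5a, Stat3, Jak2 and Stat2 lie between 1.26 and 2.07 in confined WT cells and between −0.65 and 0.27 in confined KO cells, while all 9 lie above 0 under LPS. Tyk2 in confined WT cells changes sign at the same total per library.

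Confined cells were then set against LPS libraries directly. Of the 9 genes, 1 was higher in confined WT than in LPS libraries labelled WT and 7 were lower, where 21.6% of all genes were higher and 27.2% were lower. At the same total per library 2 were higher and 5 lower. The higher gene was Stat4, at 5235 to 5496 in confined WT against 2900 to 4259 under LPS (log2 difference 0.59, SE 0.11, adjusted p = 0.000116). Stat3 did not differ past the threshold, with overlapping libraries and a log2 difference of −0.10 (adjusted p = 0.283) that was 0.19 (adjusted p = 0.0479) at the same total. By more than 1 on the log2 scale, 1 gene was lower, Stat5a at −1.01, as were 7.51% of all genes. It was within that fold, and the count 0, with edgeR, DESeq2, TMM scaling and the same total, and without confined WT replicate 2 or LPS replicate 2 of the WT label. Jak3 (−0.89), Tyk2 (−0.87), Stat6 (−0.53), Jak2 (−0.50), Jak1 (−0.39) and Stat2 (−0.31) were between. The last 2 were not past the threshold at the same total (−0.10 and −0.02).

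All 9 genes were lower in confined KO than in LPS libraries labelled KO, 7 of them by more than 1 on the log2 scale, where 30.6% and 12.6% of all genes were. Stat5a differed by −2.70, Stat2 by −2.20, Jak2 by −1.97, Stat4 by −1.86, Jak3 by −1.70, Stat3 by −1.57 and Tyk2 by −1.18. Stat6 (−0.63) and Jak1 (−0.41) differed least, and Jak1 turned to 0.03 at the same total per library. The median was −1.70 for the 9 genes and 0.02 for all genes tested, against −0.50 and −0.02 in the comparison with the WT label. All these comparisons share groups, so their values stand side by side and were not correlated.

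Ordered by level over 5 conditions with the LPS labels pooled, 8 of the 9 genes were highest under LPS, with Stat3 overlapping confined WT. Stat4 alone was highest in confined WT, at a mean of 5329, then LPS at 3592, nonconfined KO at 1544, nonconfined WT at 1270 and confined KO at 983, with no overlap between neighbours. Confined WT was the next highest for each of the other 8, overlapping confined KO only for Stat6. Confined KO was the lowest condition for Stat2 (3865), Stat4 (983), Jak3 (884) and Tyk2 (7533), the last overlapping nonconfined KO. At the other end, nonconfined KO was lowest for Jak2, Stat3 and Stat5a, overlapping confined KO for Jak2 and nonconfined WT for Stat3.

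The mix of family members per kilobase also differed by condition. Jak2 made up 49.2% ± 1.56 of the 4 kinase genes in nonconfined WT, 45.8% ± 0.505 in nonconfined KO, 68.3% ± 0.231 in confined WT and 48.2% ± 0.890 in confined KO (mean, SD, n = 3). Under LPS it made up 64.7% ± 0.218 and 64.5% ± 0.125. The confined WT share was above every nonconfined and confined KO library. The share of Stat6, the IL-4 and IL-13 factor, among the 5 factor genes went from 26% ± 0.440 in nonconfined WT to 12.9% ± 0.214 in confined WT, and was 32.9% ± 0.786 in confined KO. Stat6 itself did not fall in confined WT (log2 fold change 0.32), and its share fell because the other factor genes rose by more. The share of Stat5a went from 16% ± 0.0722 to 21.7% ± 0.544 in WT confinement and stood at 32.6% ± 0.392 under LPS labelled WT.

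In confined WT cells the order per kilobase was Jak2 (4056 ± 8.84), Stat2 (2267 ± 4.03), Stat3 (1563 ± 27), Stat5a (1471 ± 55.6), Tyk2 (1081 ± 19.9), Stat6 (877 ± 6.04), Jak1 (601 ± 6.89), Stat4 (595 ± 16.2) and Jak3 (196 ± 2.59). Jak1 and Stat4 overlapped there. In confined KO cells Jak2 (1422 ± 47.9) was followed by Tyk2 (861 ± 40.8) and Stat6 (847 ± 39.8), which overlapped, and Stat2 (613 ± 37.3) was below them. Under LPS labelled WT, Stat5a (2973 ± 135) had moved to the next place after Jak2 (5724 ± 89.9), ahead of Stat2 (2802 ± 35.7), while under the KO label Stat5a (2947 ± 127) and Stat2 (2808 ± 62.8) overlapped. The summed level of the 4 kinase genes was 3329 ± 11.3 per kilobase in nonconfined WT, 5935 ± 32.8 in confined WT and 2949 ± 90.5 in confined KO. For the 5 factor genes the sums were 2706 ± 96.1, 6774 ± 88.7 and 2572 ± 112.

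Ligands of JAK-STAT receptors stand at the head of the pathway, and 19 of 24 listed passed the filter. Ifng, Il21, Il11, Il20 and Il24 did not pass. In confined WT cells 18 of the 19 were higher and none lower, with a median log2 fold change of 4.12, or 3.70 with the 4 genes at 0 reads in nonconfined WT (Il10, Il2, Csf2 and Il19) set to their lower bound of fold. The filter itself favours this direction, since 9 of the 19 (Ifnb1, Il10, Il12a, Il23a, Il2, Csf2, Csf3, Tslp and Il19) passed only with confined or LPS libraries counted in. A share of all genes is therefore no fair reference for the 19. Of the 10 that passed in nonconfined libraries alone, 9 were higher with a median of 2.17, where 28.2% of all genes were higher. Csf3, which encodes the growth factor G-CSF, read 3.05, 0 and 0 normalized counts in nonconfined WT, 7260, 6701 and 6676 in confined WT and 147, 162 and 178 in confined KO. Its confined WT libraries were far above a nonconfined group holding few reads, and its fitted log2 value of 12.07 depends on the added count. Il10, an inhibitory cytokine acting through STAT3, had no read in nonconfined WT, and 1466, 1454 and 1558 in confined WT are at least 575-fold higher, taking a floor of 3 reads per library. In confined KO it read 18.3, 16 and 9.11. Il23a, a subunit of the STAT3 and STAT4 activator IL-23, read 3.05, 1.71 and 1.97 in nonconfined WT and 807, 763 and 746 in confined WT.

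In KO cells 12 ligands were higher and 3 lower after confinement (Ebi3 −0.18, Il15 −0.98 and Il7 −1.71), with a median of 1.02. Among the 10 that passed the filter in nonconfined libraries alone, 5 were higher and 3 lower, with a median of 0.37. Of all genes, 22.8% were higher and 23.4% lower, so the number lower is near that share. The interaction was negative past the threshold for 16 of the 19 and positive for none, and for 8 of those 10. Of all genes, 15.6% were negative and 10.2% positive. Among the 10, Il12b (−6.66, SE 0.15, adjusted p = 1.66e-18) and Il6 (−5.97, SE 0.12, adjusted p = 1.52e-19) had the largest fitted values. Il12b, the subunit shared by IL-12 and IL-23, read 179, 170 and 184 in nonconfined WT, 27234, 25842 and 26344 in confined WT and 391, 377 and 299 in confined KO. Confined WT stood apart from both other groups. Ifnb1, the interferon upstream of STAT2, read 3.05, 5.12 and 5.90 in nonconfined WT, 105, 92.6 and 103 in confined WT and 11.9, 6.40 and 6.38 in confined KO, a gene singled out after its values were seen. Under LPS 19 of 19 were higher with the WT label and 17 with the KO label, with medians of 6.44 and 6.26, or 5.06 and 5.85 with genes at 0 reads set to their bound. The 10 ligands passing in nonconfined libraries alone had 10 and 8 higher, with medians of 2.92 and 2.25, where 33.4% of all genes were higher under each label.

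Receptor chains that pair with JAK kinases were all 30 above the filter. In confined WT cells 20 were higher and 4 lower (Il6ra −0.45, Lifr −2.44, Il27ra −0.70 and Il5ra −2.42), with a median of 0.34, where 28.2% of all genes were higher and 28.4% lower. At the same total per library 13 were higher and 7 lower, and Crlf2, Csf2ra, Csf2rb and Csf2rb2 changed sign. Il2rb, a chain of the IL-2 and IL-15 receptors, read 4.57, 6.82 and 0 in nonconfined WT and 65.7, 42.9 and 52.1 in confined WT. Osmr, the oncostatin M receptor chain, had no read in nonconfined WT, and its 10.6, 15.4 and 14.2 in confined WT are at least 5.17-fold higher. Both passed the filter only with confined or LPS libraries counted in, which favours a rise, and of the other 28 chains 18 were higher and 4 lower. Lifr, the receptor chain of leukemia inhibitory factor, read 251, 300 and 327 against 67.6, 42.9 and 50.9, and fell in each library. In KO cells 14 were higher and 7 lower with a median of 0.13, or 11 and 7 under both other scalings, where 22.8% of all genes were higher and 23.4% lower.

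The interaction was negative for 14 receptor chains and positive for 2, Il6ra (0.76) and Csf2rb (0.34), while at the same total 12 were negative and 5 positive. Of all 17875 genes, 15.6% were negative and 10.2% positive, and at the same total 1962 and 4741 genes were. Without Osmr and Il2rb, whose direction the filter favours, 12 of 28 were negative and 2 positive, and the largest fitted value was that of Il2ra (−2.16, SE 0.08, adjusted p = 9.2e-15). Il2ra, the IL-2 receptor alpha chain, read 2819, 2828 and 2616 in nonconfined WT and 5801, 5633 and 5731 in confined WT. In KO it read 2379, 2728 and 2725, then 1311, 1103 and 1231. It thus went up in each WT library and down in each KO library.

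Inhibitors of the pathway, the SOCS and PIAS proteins, phosphatases and Usp18, were all 19 above the filter. In confined WT cells 11 were higher and 5 lower (Socs2 −0.64, Socs5 −0.26, Pias3 −0.41, Ptpn6 −0.72 and Sh2b3 −0.48), with a median of 0.23. The number lower is near the share of all genes, of which 28.4% were lower and 28.2% higher. At the same total 8 were higher and 6 lower, and Socs4 changed sign. Socs3, which blocks gp130 receptors and JAK kinases, read 4343, 3920 and 4171 in nonconfined WT and 41187, 38353 and 39960 in confined WT. In KO it read 4204, 4296 and 4486, then 5931, 5564 and 5759. The WT change was 3.27 (SE 0.05, adjusted p = 8.1e-22) and the interaction −2.86 (SE 0.07, adjusted p = 1.05e-17).

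Usp18, which restrains the type I interferon receptor, read 4928 in each nonconfined WT library and 14337, 13278 and 13801 in confined WT. In KO it read 4971, 4551 and 4643, then 1557, 1609 and 1659. It rose in WT (1.49, SE 0.04, adjusted p = 1.14e-17) and had the largest interaction of the inhibitors (−3.04, SE 0.06, adjusted p = 1.35e-19). Socs1, an inhibitor of JAK kinases after interferon, read 4420, 3984 and 4147 against 8569, 8091 and 8036 in WT and 4698, 4074 and 4783 against 3923, 3846 and 3665 in KO. Its WT change was 0.98 (SE 0.06, adjusted p = 1.22e-11) and its interaction −1.22 (SE 0.09, adjusted p = 3.38e-10). In KO cells 8 inhibitors were higher and 7 lower with a median of −0.08, or 5 and 9 under both other scalings, beside 22.8% and 23.4% of all genes. Of 8 interactions past the threshold, 7 were negative and 1 positive (Sh2b3, 0.27), against 5 and 4 at the same total. Of all 17875 genes, 15.6% were negative and 10.2% positive, and 1962 and 4741 genes at the same total, so that the positive count there is no excess.

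Type I interferon targets, genes that ISGF3 activates, were all 18 higher in confined WT cells, with a median log2 fold change of 1.53 (17 at the same total), where 28.2% of all genes were higher. In KO cells 16 of 18 were lower and none higher, where 23.4% of all genes were lower, with a median of −1.30, and Oasl1 (0.05) and Rsad2 (0.09) did not pass the threshold. The interaction was negative for 18 of 18, with a median of −3.09, and for 15.6% of all genes. The study itself showed some of these genes for these samples, so their direction is not independent evidence. Rsad2, an antiviral enzyme, read 344, 334 and 321 in nonconfined WT and 11593, 11202 and 11191 in confined WT, and in KO 414, 416 and 439, then 438, 472 and 444. Its WT rise (5.08, SE 0.06, adjusted p = 1.62e-24) and its interaction (−4.99, SE 0.08, adjusted p = 6.01e-21) were the largest of the list.

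Ifit1, a sensor of viral RNA, read 1781, 1749 and 1843 in nonconfined WT and 22292, 20656 and 21168 in confined WT. In KO it read 2464, 2111 and 2133, then 972, 912 and 812, so that confined libraries were high in WT and low in KO. Oasl1, of the oligoadenylate synthetase family, read 351, 344 and 369 against 8469, 7905 and 8087 in WT and 359, 299 and 351 against 358, 334 and 346 in KO. Irf9, the DNA-binding partner of STAT2 and named here for that role after its values were seen, read 2604, 2339 and 2369 against 3080, 3230 and 3148 in WT and 2613, 2494 and 2594 against 1340, 1237 and 1345 in KO. Its changes were 0.37 (SE 0.06, adjusted p = 6.55e-06) and −0.97 (SE 0.06, adjusted p = 7.13e-12), the same signs as Stat2. Under LPS 18 of 18 targets were higher with either label (medians 2.97 and 3.36), where 33.4% of all genes were higher under each label.

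Interferon gamma targets were higher in confined WT cells for 12 of 14 and lower for Ciita (−1.03) and Psmb9 (−0.13), with a median of 1.29. In KO cells 2 were higher (Cxcl9 0.72 and Cxcl10 0.60), or 1 under both other scalings, and 10 were lower, with a median of −0.68. Interactions were negative for 13 and positive for none, with a median of −1.94. Of all genes, 28.2% were higher in WT, 22.8% higher and 23.4% lower in KO, and 15.6% had a negative interaction. Cxcl10, a chemokine for T cells, read 429, 412 and 460 against 44120, 42419 and 42869 in WT and 610, 542 and 571 against 864, 899 and 841 in KO. Both genotypes moved up, WT by far more (6.63, SE 0.08, adjusted p = 3.12e-24, interaction −6.04). Cxcl9, a related chemokine, read 3.05, 10.2 and 5.90 against 305, 283 and 303 in WT, and Gbp5, a guanylate-binding protein of host defence, read 1578, 1661 and 1681 against 13206, 13086 and 13189. The interaction of Gbp5 was −4.32 (SE 0.09, adjusted p = 3.53e-19). Cxcl9 passed the filter only with confined or LPS libraries counted in, and without it 11 of 13 targets were higher in WT and 12 had a negative interaction.

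Target genes of STAT3 and STAT5 were higher in confined WT cells for 13 of 17 and lower for Socs2 (−0.64), Ptx3 (−0.36), Ccnd1 (−2.32) and Myc (−1.71), with a median of 1.28. In KO cells 9 were higher and 4 lower with a median of 0.27, or 9 and 5 under both other scalings. The interaction was negative for 14 and positive for 1, Myc (0.89), with a median of −0.91. Shares of all genes were 28.2% higher and 28.4% lower in WT, 22.8% and 23.4% in KO, and 15.6% negative and 10.2% positive for the interaction. Il1rn, the secreted IL-1 receptor antagonist, read 12274, 12349 and 12440 against 154259, 147351 and 148372 in WT and 13982, 13397 and 13118 against 57399, 55879 and 56065 in KO. It rose in both genotypes, by 3.60 (SE 0.04, adjusted p = 4.25e-25) in WT. Bcl3, a nuclear regulator of NF-κB, read 838, 828 and 850 against 6126, 5604 and 6137 in WT and 889, 815 and 816 against 1482, 1449 and 1419 in KO. Its interaction was −2.04 (SE 0.07, adjusted p = 1.18e-15), and that of Junb, an AP-1 subunit, was −1.81 (SE 0.08, adjusted p = 4.29e-14).

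STAT6 targets of myeloid cells moved in both directions. In confined WT cells 6 of 14 were higher and 6 lower with a median of 0.03, or 5 and 6 at the same total and among the 13 that passed the filter in nonconfined libraries alone, and in KO cells 5 were higher and 6 lower with a median of −0.12. Among all genes, 28.2% were higher and 28.4% lower in WT, and 22.8% and 23.4% in KO. In WT at the same total, 3578 of 17875 genes were higher and 7380 lower. Tgm2, a transglutaminase, read 3043, 2739 and 3104 against 29209, 27083 and 27480 in WT and 3846, 3815 and 3726 against 13067, 11589 and 11924 in KO. It rose in each, by 3.24 (SE 0.06, adjusted p = 7.67e-21) in WT. Ccl24, an eosinophil chemokine, read 13.7, 11.9 and 9.83 against 89.9, 49.7 and 64 in WT, and its confined libraries were all higher (2.39, SE 0.41, adjusted p = 3.73e-05). The interaction was negative for Ccl22 (−1.56), Tgm2 (−1.56) and Ccl17 (−0.44) and positive for Chil3 (0.61), and at the same total for 3 and 2 genes. These counts are near the shares of all genes, 15.6% negative and 10.2% positive. At the same total 1962 of 17875 genes were negative and 4741 positive. Ccl22, a chemokine of activated DCs, read 56584, 54570 and 55835 against 74887, 71370 and 72314 in WT and 52680, 50629 and 48696 against 23619, 21529 and 22453 in KO.

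**Figure D3:**
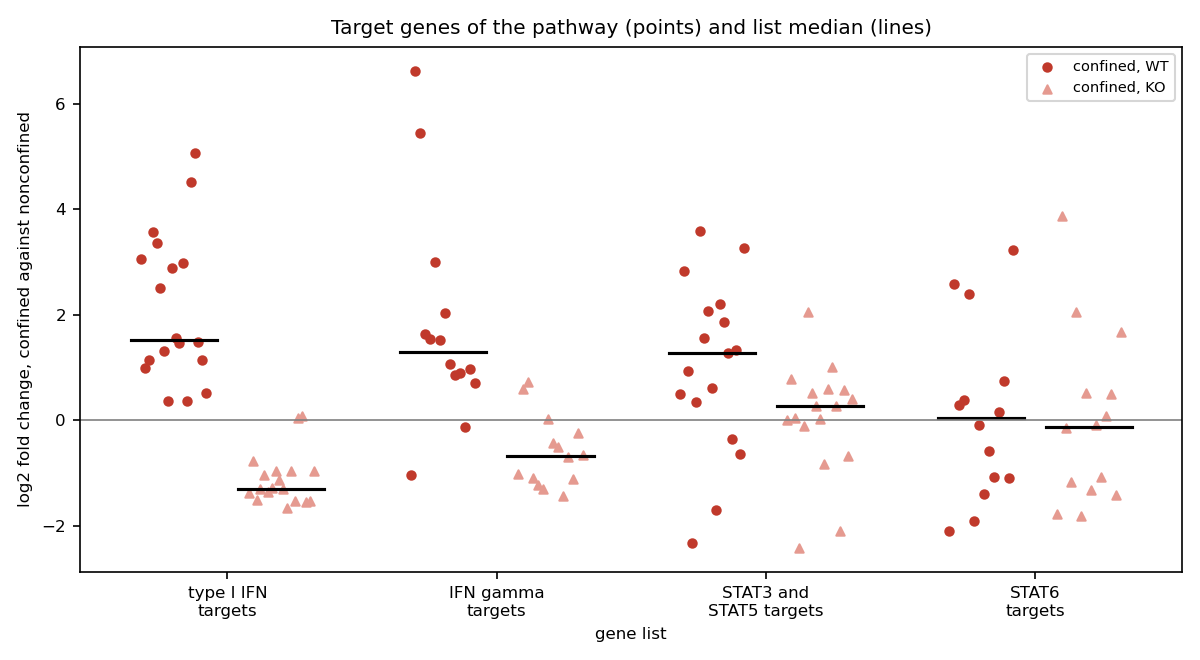
Log2 fold change of confined against nonconfined cells for each target gene in WT (circles) and KO (triangles), with lines at the list medians. Type I interferon targets have medians of 1.53 in WT and −1.30 in KO, and STAT6 targets have medians of 0.03 and −0.12, where the WT median of the STAT6 list changes sign under both other scalings.

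Markers of other cells that the culture can hold were read as well. The neutrophil list (9 genes, most abundant S100a9, all 9 detected) summed to 239127, 244208 and 242596 normalized counts in nonconfined WT and 370216, 332916 and 358110 in nonconfined KO. In confined cells it summed to 154377, 147169 and 144972 in WT and 333954, 346794 and 330900 in KO. In confined WT 8 of 9 were lower, the interaction was positive for 8 of 9, and 9 of 9 were higher in confined KO than in confined WT. Of all genes, 28.4%, 10.2% and 18.8% were called in these directions. At the same total per library each of these counts was 9. LPS sums lay between 277055 and 312690.

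The eosinophil list (3 genes, most abundant Prg2) summed to 26755, 26550 and 26377 in nonconfined WT, 66677, 62241 and 64278 in nonconfined KO, 5842, 5586 and 5472 in confined WT and 15222, 14882 and 15729 in confined KO. All 3 were lower after confinement in both genotypes and higher in KO in both states, and 0 of 3 had an interaction past the threshold. Of all genes, 28.4% were lower in WT and 23.4% in KO, 18.8% were higher in confined KO than in confined WT, and 854 of 17875 in nonconfined KO. The interaction was negative for 15.6% of all genes and positive for 10.2%. Under LPS it summed to 38928, 22201 and 30471 in WT-labelled replicates 1 to 3 and 22000, 38510 and 31125 in KO-labelled replicates 1 to 3. The mast cell and basophil list (6 genes, most abundant Cpa3) summed to 6190, 6389 and 6265 in nonconfined WT, 9780, 9362 and 9285 in nonconfined KO, 2660, 2482 and 2506 in confined WT and 4151, 4045 and 4187 in confined KO. All 6 fell in both genotypes, against those shares of 28.4% and 23.4%.

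DC markers (7 genes, most abundant Cd74, none at 0) summed to 365440, 340353 and 346300 in nonconfined WT, 424925, 398470 and 413821 in nonconfined KO, 338164, 316380 and 326277 in confined WT and 295690, 281445 and 294465 in confined KO. In WT 2 were higher and 5 lower after confinement, where 28.2% and 28.4% of all genes were, and in KO 6 were lower, where 23.4% were. Most of the DC sum was Cd74 (mean 240559 in nonconfined WT, then 208673 in confined WT), so the sum does not reflect the 2 genes that rose. Macrophage markers (6 genes, most abundant Csf1r) had an interaction past the threshold for 0 of 6, where 15.6% of all genes were negative and 10.2% positive. Their summed group means ran from 49908 to 64956, with 57909 in nonconfined WT and 57924 in confined WT. Most of that sum was Csf1r (mean 36764, then 36132 in WT), and other members moved in both directions. In WT Mertk (−0.55), C1qa (−0.88) and C1qb (−0.59) were lower and Cd68 (0.30) was higher. In KO the log2 changes of these genes were −0.35, −1.11, −0.87 and 0.43, all past the threshold. Adgre1 and Csf1r did not pass it in either genotype. T and NK cell markers (5 genes, 3 tested, most abundant Cd3g) had means of 2476 in nonconfined WT and 768 in confined WT, 3040 and 1126 in KO, and 451 and 465 under LPS, with Ncr1 and Klrb1c under 10 in each library. B cell markers (3 genes) had means between 15.1 and 71.7, and plasmacytoid DC markers (3 genes, most abundant Tcf4) had 326 in nonconfined WT, 812 in confined WT and 286 in confined KO. Nearly all of the plasmacytoid sum was Tcf4 (mean 308, then 799 in WT, log2 change 1.37), while Siglech (−1.37, adjusted p = 0.148) and Ccr9 (0.18, adjusted p = 0.765) did not pass the threshold in WT. The part of cell composition in the changes of the 9 genes was not tested.

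The total of normalized counts also differed by group, with means of 34125100 in nonconfined WT, 34932739 in nonconfined KO, 39890269 in confined WT, 35818965 in confined KO, 48718670 in LPS labelled WT and 48721816 in LPS labelled KO. Setting the same total for each library moved the median log2 change of all genes to −0.23 in confined WT, 0.24 in the interaction, 0.19 between confined genotypes, −0.47 and −0.44 under LPS, and 0.26 and 0.46 in confined against LPS libraries labelled WT and KO, and by under 0.1 in confined KO (−0.02) and between nonconfined genotypes (−0.03). Of all calls, the share that was higher went from 49.8% to 32.7% in confined WT, from 39.5% to 70.7% in the interaction, from 53.8% to 42.0% between nonconfined genotypes and from 47.7% to 69.7% between confined genotypes. It went from 53.1% to 25.5% and from 52.6% to 26.2% under LPS, and from 44.2% to 75.0% and from 47.9% to 77.4% for confined against LPS libraries. Of 4 genes often used as references, the log2 values in confined WT were 0.33 for Actb, 0.18 for Gapdh, −0.23 for Hprt and −0.05 for Tbp, and at the same total 0.10, −0.05, −0.45 and −0.28. Gapdh thus changed sign. The large changes of Stat4, Stat5a, Stat3, Jak2 and Stat2 exceeded these shifts. Under LPS, labelled WT and KO, Actb was at 0.90 and 0.87 and Gapdh at 1.30 and 1.02. At the same total Actb was at 0.39 under both labels and Gapdh at 0.79 and 0.54. Hprt and Tbp lay between −0.02 and 0.11, and between −0.54 and −0.37 at the same total. The LPS changes of Jak1, Stat6 and Jak3 lay within or below the range of Actb and Gapdh under both labels. Tyk2 lay within it under the WT label (0.95) and just above Gapdh under the KO label (1.05). In confined WT cells the changes of Stat6 (0.32), Jak1 (0.26), Jak3 (0.19) and Tyk2 (0.09) were all below that of Actb. Actb also had an interaction of −0.35 (limma adjusted p = 0.000435), where Tyk2 had −0.22. Between confined genotypes Actb and Tyk2 both stood at −0.33.

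Among the 9 genes, Pearson correlations over the 18 libraries were highest for Jak2 with Stat5a (0.99) and for Jak2 with Stat2 and Stat3 (0.98 each). They were lowest for Stat4 with Tyk2 and with Stat6 (0.63 each). These describe 18 libraries in shared treatment groups, not 18 independent samples. The genes most like each member on the same measure, among 10419 or 10420 candidates, were Slc2a6 (0.997), Ifi205 (0.996) and Zc3hav1 (0.995) for Jak2, Tnfsf15 (0.999), Birc3 (0.998) and Clic4 (0.997) for Stat5a, and Gbp5 (0.997), Mx2 (0.996) and Ifit2 (0.996) for Stat2. For Stat3 they were Cyfip1, Jarid2 and Tnip3 (0.995 each), and for Stat4, whose matches were the weakest, Pfkfb3 (0.975), Ctif and Cep83 (0.972 each). For Tyk2 they were Ncoa5 (0.994), Itgal (0.993) and Irf8 (0.992), for Jak1 Adam17 (0.988), Pik3r5 (0.986) and Zc3h12c (0.985), for Jak3 Inpp5b, Oas1a and Nmi (0.987 each), and for Stat6 Ptpn1 (0.992), Anxa2 and Ero1a (0.989 each).

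Promoters are shown because STAT complexes bind short DNA motifs and several of these genes moved together with interferon targets. RefSeq sequences in build GRCm38.p6, from 250 bases before to 50 after the start, were available for 9 of 9 genes with 11 start sites. The GAS type site of STAT dimers, TTCNNNGAA, which reads alike on both strands, was found in 0 of the 11 windows, against 8.3% of 32851 promoters of this length (2726). The core of the interferon-stimulated response element, GAAANNGAA, or TTCNNTTTC on the other strand, was found in 3 windows, against 8.56% of all promoters (2812). Those were Jak3 at −143 from the start (chr8:71676133-71676432, plus strand), Stat2 at −221 on the minus strand (chr10:128270248-128270547, plus strand) and the second Stat4 start site at −97 (chr1:52007990-52008289, plus strand). Capitals mark the motif in the lines that follow. A match is a description of letters, and an absent match says only that these letters are not in this window.
Jak3: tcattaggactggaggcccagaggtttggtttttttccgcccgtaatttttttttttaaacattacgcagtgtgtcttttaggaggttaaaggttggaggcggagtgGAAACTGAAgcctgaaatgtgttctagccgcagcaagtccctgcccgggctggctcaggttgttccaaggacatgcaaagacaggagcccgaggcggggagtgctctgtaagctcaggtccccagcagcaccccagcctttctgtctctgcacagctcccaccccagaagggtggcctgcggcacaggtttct
Stat2: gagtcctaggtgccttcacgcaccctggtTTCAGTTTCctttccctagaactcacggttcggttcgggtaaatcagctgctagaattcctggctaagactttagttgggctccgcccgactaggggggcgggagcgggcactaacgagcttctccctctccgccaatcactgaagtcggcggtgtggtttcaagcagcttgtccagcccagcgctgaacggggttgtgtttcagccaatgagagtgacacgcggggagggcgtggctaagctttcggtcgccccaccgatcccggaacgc
Stat4: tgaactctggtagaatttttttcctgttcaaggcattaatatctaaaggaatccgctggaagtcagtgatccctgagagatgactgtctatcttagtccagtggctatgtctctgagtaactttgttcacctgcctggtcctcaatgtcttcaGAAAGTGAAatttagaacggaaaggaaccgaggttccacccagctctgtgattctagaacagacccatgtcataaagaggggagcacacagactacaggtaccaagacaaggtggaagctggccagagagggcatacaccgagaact

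Of the genes with this core, Stat2 and Stat4 rose in confined WT and fell in confined KO cells, and Jak3 fell in confined KO cells. Stat3, Stat5a and Jak2, which had neither motif in their windows, rose in confined WT by comparable amounts, and Tyk2, also with neither, was lower in confined KO cells (−0.13, adjusted p = 0.0326). Whether any factor bound these promoters was not measured.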

How the data were processed

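The deposited signal values are gene counts from stranded polyadenylated RNA libraries of 18 samples, which the authors aligned to mm39 with STAR 2.7.5a, counted with featureCounts 1.5.0 and divided by DESeq2 size factors. Whole reads were recovered for 100% of values within 0.01. Genes were tested if 3 or more libraries held 10 or more normalized counts (17875 of 62197), with limma 3.58.1 in R 4.3.3 (lmFit, contrasts.fit, eBayes with trend) on log2(normalized count + 1), with 1 mean per group. P-values were adjusted by Benjamini-Hochberg over all genes tested, and called under 0.05. A second rule adds an absolute log2 fold change above 1. The method was tested on simulated data with 200 of 16199 genes changed and the same spread setting for every gene. It called 188 of the 200 and made 5 false calls. In the real comparison of confined with nonconfined WT cells 10113 genes were called, so the simulation does not test the scaling. Alternatives, 12 in all, were edgeR 4.0.16 and DESeq2 1.42.0 on recovered reads, TMM, the same total per library, pseudocounts of 0.5 and 5, filters, the compared groups alone, pooled LPS labels, a replicate block, and the thresholds of the study's Methods (fold change 1.5, unadjusted p 0.05). Each of the 18 libraries was also left out in turn. The members and gene lists were chosen with earlier results of these data known. Some genes stand in more than 1 list, so the counts of the lists are not independent. Among them, Socs1, Socs2, Socs3 and Usp18 are counted both as inhibitors and as target genes. Named genes were all members, the 3 largest changes of each list in confined WT and in the interaction, any gene in a count of 5 or fewer, the 3 genes most correlated with each member, and control genes, and some genes that this rule or a list holds are counted but not reported here by name. Values per kilobase used exons of GENCODE vM39. Python 3.11.15, pandas 2.3.3 and matplotlib 3.10.9 were used. Which of 2 library kits each sample had is not given. Floors and bounds cover counting error only. Other STAT genes and protein sequences were not analysed here.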

Additional observations from a re-analysis of the deposited data

Results flagged for a closer look

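The change after confinement differed between the genotypes by the interaction test for 7 of the 9 genes, each value being the log2 change in KO minus that in WT. These were Stat4 (−2.72), Stat2 (−1.76), Stat5a (−1.51), Stat3 (−1.42), Jak2 (−1.27), Jak3 (−0.87) and Tyk2 (−0.22). The causes were not tested, and donor sex cannot be told apart from genotype in these groups.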

How the results depend on the processing

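Calls on the 9 genes over 10 comparisons were the same in 90 of 90 cases with pseudocounts of 0.5 and 5, TMM scaling and the replicate block, in 88 with edgeR, DESeq2 or no filter, in 87 with a filter of 100 counts or the compared groups alone, in 79 at the same total and in 72 under the thresholds of the Methods. With the replicate block, 7 members were called in confined WT, and in no comparison were all correlations between same-numbered replicates above 0.1.

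At the same total per library, signs turned for Tyk2 in confined WT (−0.14, adjusted p = 0.0169), for Jak1 between confined genotypes (0.03) and in confined KO against LPS (0.03), and for Stat3 in confined WT against LPS (0.19, adjusted p = 0.0479). The Tyk2 interaction became −0.03 (adjusted p = 0.756). By the fold rule 4 members in place of 7 were called for LPS labelled KO. For confined against LPS, labelled WT, the fold rule gave 0 in place of 1 at the same total, with TMM (0), edgeR (0) and DESeq2 (0), and 0 to 1 with a library left out, 0 being without confined WT replicate 2 or LPS WT-labelled replicate 2. Under the thresholds of the Methods, 2 members in place of 7 were called in confined KO, 0 in place of 2 between nonconfined genotypes, and 4 in place of 8 for confined against LPS, labelled WT. With a library left out, 1 to 3 members were called between nonconfined genotypes. It was 1 without nonconfined WT replicates 1 or 3 or nonconfined KO replicate 1, and 3 without nonconfined KO replicate 2. The cause was not tested. The lowest library value of any member was 805 normalized counts (Jak3), so depth limits them little, while ligands such as Il10 and Csf3 had few or no reads in nonconfined cells.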
